A study of Mus musculus with 16 samples.

Results

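The genes of the constitutive proteasome were taken as every gene symbol that begins with Psma, Psmb, Psmc or Psmd and ends in digits, leaving out the 3 inducible catalytic genes Psmb8, Psmb9 and Psmb10. The rule found 36 of the 55278 gene symbols, of which 8 encode alpha and 8 encode beta subunits of the core particle. A further 6 encode the ATPases and 11 the non-ATPase subunits of the regulatory particle, and 3, Psmd5, Psmd9 and Psmd10, carry subunit names but encode assembly chaperones of that particle. The low-value filter kept 35 of the 36 genes, leaving out Psmb11.

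RNA was measured in hearts taken 12 h after an intraperitoneal injection. The mice were C57BL/6J males, 8 to 12 weeks old. The 4 groups of 4 hearts were PPARα-deficient mice given lipopolysaccharide (LPS, a bacterial endotoxin) at 5 mg/kg, PPARα-deficient mice given phosphate-buffered saline (PBS), Ppara-Flox mice given LPS at 5 mg/kg and Ppara-Flox mice given PBS. PPARα is a nuclear receptor for fatty acids, and the deficiency was placed in cardiomyocytes, so that other cells of the heart may still express it. The labels name no Cre line or promoter and hold no group with Cre but without floxed alleles, so Cre and the loss of PPARα cannot be told apart.

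The proteasome degrades proteins that carry chains of ubiquitin and is the main route by which heart muscle removes short-lived and damaged proteins. Its core is a barrel of alpha rings around beta rings, with the cutting sites inside on the products of Psmb5, Psmb6 and Psmb7, and the regulatory particle at its ends binds, unfolds and feeds in the substrate. Interferons replace the cutting subunits with those of Psmb8, Psmb9 and Psmb10, and a shortage of proteasome activity raises the constitutive genes together through the transcription factor encoded by Nfe2l1, which binds antioxidant response elements.

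Promoters are shown for the 3 genes with the highest log2 fold change after LPS in PPARα-deficient hearts, Psma5, Psmd11 and Psmd4. Those of the catalytic genes Psmb5 and Psmb6, among the 4 called genes with the lowest log2 fold change there, are shown too. Psmb7, Psmc3, Psma1, Psmd1, Psmd5 and Psmd10 changed less there but are not shown. None of these is among the genes listed below with the antioxidant response element core, although not every gene had a promoter to search. A link between the promoter letters and the response to LPS was not tested. Each runs 5′ to 3′ from 250 bases before to 50 bases after the RefSeq gene start on GRCm38.p6. Psma5 lies at chr3:108256676-108256975 on the plus strand, Psmd4 at chr3:95042565-95042864 on the minus strand, Psmd11 at chr11:80428365-80428664 on the plus strand, Psmb5 at chr14:54617946-54618245 on the minus strand and Psmb6 at chr11:70525107-70525406 on the plus strand. Capitals mark matches on either strand to the antioxidant response element core TGACNNNGC or to the ETS factor core CCGGAAG.
Psma5: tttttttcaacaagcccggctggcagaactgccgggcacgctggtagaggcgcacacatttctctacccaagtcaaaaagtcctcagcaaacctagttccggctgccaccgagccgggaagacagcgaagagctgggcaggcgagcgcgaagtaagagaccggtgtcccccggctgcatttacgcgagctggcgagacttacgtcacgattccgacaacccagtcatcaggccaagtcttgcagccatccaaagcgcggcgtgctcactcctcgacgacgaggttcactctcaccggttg
Psmd11: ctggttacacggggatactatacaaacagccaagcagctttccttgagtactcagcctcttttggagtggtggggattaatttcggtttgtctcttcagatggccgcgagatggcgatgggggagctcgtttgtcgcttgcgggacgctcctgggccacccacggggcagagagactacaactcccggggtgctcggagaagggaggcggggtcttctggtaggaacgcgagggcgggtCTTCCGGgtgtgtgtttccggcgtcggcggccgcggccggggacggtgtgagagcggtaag
Psmd4: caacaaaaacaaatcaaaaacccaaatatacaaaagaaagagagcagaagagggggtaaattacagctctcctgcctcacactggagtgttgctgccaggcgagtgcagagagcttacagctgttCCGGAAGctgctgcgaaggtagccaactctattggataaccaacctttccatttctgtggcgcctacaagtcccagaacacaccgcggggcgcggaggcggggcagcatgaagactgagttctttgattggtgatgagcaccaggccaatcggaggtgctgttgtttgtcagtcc
Psmb5: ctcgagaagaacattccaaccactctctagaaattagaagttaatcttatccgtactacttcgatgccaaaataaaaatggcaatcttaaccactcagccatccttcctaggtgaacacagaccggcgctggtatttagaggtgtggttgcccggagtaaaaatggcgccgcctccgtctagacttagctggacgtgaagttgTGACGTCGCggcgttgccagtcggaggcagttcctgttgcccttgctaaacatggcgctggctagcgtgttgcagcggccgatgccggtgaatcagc
Psmb6: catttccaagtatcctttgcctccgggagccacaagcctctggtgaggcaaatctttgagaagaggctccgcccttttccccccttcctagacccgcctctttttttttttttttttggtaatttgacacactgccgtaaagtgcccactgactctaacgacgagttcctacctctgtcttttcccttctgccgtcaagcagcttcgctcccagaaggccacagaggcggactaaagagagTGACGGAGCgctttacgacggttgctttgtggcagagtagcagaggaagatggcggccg

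The RefSeq table held 31 promoters for 29 of the 36 proteasome genes, with a median GC content of 56.7% against 52.7% over all 32851 promoters. The antioxidant response element core was found in 5 of the 31 (16.1%), those of Psmb5, Psmb6, Psmc6, Psmd9 and Psmd12, against 12.4% of all promoters and 14.2% of the promoters of genes tested. Its first base lay 47 bases before the start in Psmb5 and 9 bases before it in Psmb6. The ETS core was found in 11 promoters (35.5%) of 10 proteasome genes, against 8.86% of all promoters and 15.2% of those of genes tested. It began 125 bases before the start in Psmd4 and 11 bases before it, on the opposite strand, in Psmd11, and the Psma5 promoter shown held neither core. CCAAT was found in 38.7% of the proteasome promoters and 37.4% of all. The interferon-gamma activated site TTCNNNGAA was found only in Psmd2, 3.23% of the 31 against 8.30% of all, and the heat shock element in none of them and in 0.603% of all. These matches are letters in a window and say nothing of factor binding.

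Levels are given as CPM (counts scaled to a common library size) after TMM scaling, and library totals were 65569134 to 75436023 estimated counts. The cardiomyocyte markers were high in every library, while the islet genes Ins1, Ins2, Gcg and Iapp were at 0, although the label on RNA extraction speaks of islets. Ppara itself stood at 11.4 to 17.6 CPM in PPARα-deficient PBS hearts against 37.4 to 59.3 CPM in Ppara-Flox PBS hearts, and at 4.25 to 11.9 CPM in PPARα-deficient LPS hearts against 7.23 to 14.7 CPM in Ppara-Flox LPS hearts. The numbers in the table headers run from 1739 to 1769 in LPS libraries and from 957 to 1075 in PBS libraries, so LPS and the numbering cannot be told apart. PPARα-deficient LPS library 3 and Ppara-Flox LPS library 4 had the highest sums of the 3 inducible catalytic genes in their groups, 310 and 237 CPM, and counts below are also given without both.

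After LPS the constitutive proteasome genes were higher in both genotypes, by modest amounts. In PPARα-deficient hearts 28 of the 35 genes tested rose and 0 fell (edgeR's quasi-likelihood test over 18713 genes, Benjamini-Hochberg adjusted p under 0.05). Over all genes tested 19.4% rose and 18.3% fell, and among genes averaging at least 4 on the log2 CPM scale 26.6% rose. In Ppara-Flox hearts 30 of the 35 rose and 0 fell, where 20.2% of all genes rose and 19.1% fell, and 27.2% of those at that level rose. The 2 comparisons use different hearts but share 1 estimate of the spread. All 35 log2 fold changes were above 0 in each genotype, with a median of 0.42 in PPARα-deficient and 0.47 in Ppara-Flox hearts, against 0.01 over all genes in each. Without PPARα-deficient LPS library 3 and Ppara-Flox LPS library 4 the counts were 27 and 29.

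In PPARα-deficient hearts 31 of the 35 genes were higher in every LPS library than in every PBS library, where 19.5% of all genes were. The exceptions were Psma8, Psmd1, Psmd5 and Psmd10. In Ppara-Flox hearts 27 were, where 19.2% of all genes were, and Psma1, Psma8, Psmb2, Psmb5, Psmb7, Psmc3, Psmc6 and Psmd3 overlapped. The calls were shared for 25 genes. Psmb2, Psmb5 and Psmc3 were called only in PPARα-deficient hearts and Psmd1, Psmd3, Psmd5, Psmd9 and Psmd10 only in Ppara-Flox hearts, and no gene of the 8 differed in its response by the interaction test given below.

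The summed level of all 36 genes was 3042 to 3222 CPM in PPARα-deficient LPS hearts against 2332 to 2409 CPM in PPARα-deficient PBS hearts. It was 2971 to 3431 CPM in Ppara-Flox LPS hearts against 2317 to 2540 CPM in Ppara-Flox PBS hearts, so that the LPS and PBS groups did not overlap in either genotype. The sum of the 17 regulatory particle genes was 1.41 to 1.51 times that of the 16 core genes in PPARα-deficient LPS hearts and 1.41 to 1.49 times in PPARα-deficient PBS hearts. It was 1.501 to 1.53 times in Ppara-Flox LPS hearts and 1.41 to 1.48 times in Ppara-Flox PBS hearts. The ratios of LPS and PBS libraries thus overlapped in PPARα-deficient hearts, while in Ppara-Flox hearts the 4 LPS ratios lay narrowly above the 4 PBS ratios. The regulatory sum includes Psmd3, which varied widely. It stood at 127 to 203 CPM in Ppara-Flox LPS hearts and at 94.2 to 139 CPM in Ppara-Flox PBS hearts. A shift of the regulatory genes as a class against the core genes was not tested and is not shown by these sums.

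**Figure D1:**
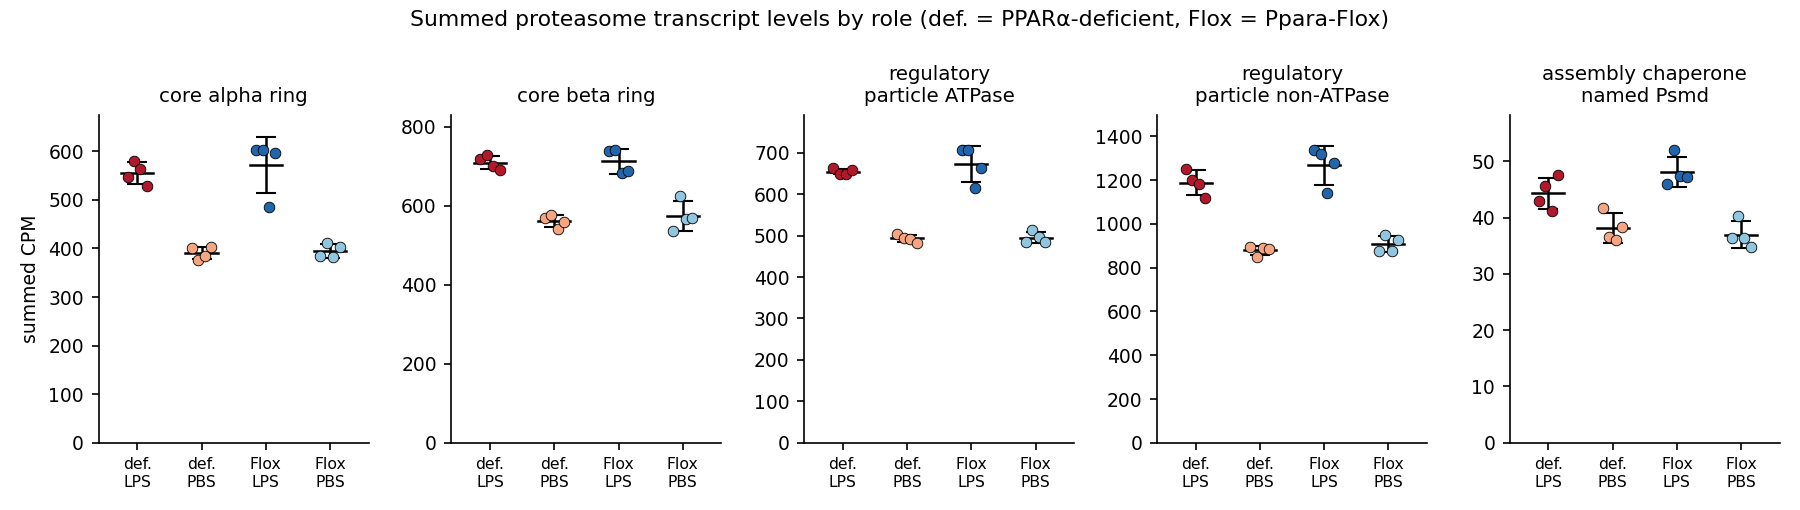
Summed CPM of the proteasome genes of each role in every library (points), with the mean and SD of 4 hearts (bars); from left to right PPARα-deficient LPS, PPARα-deficient PBS, Ppara-Flox LPS and Ppara-Flox PBS. The alpha ring sum is 528 to 581 CPM in PPARα-deficient LPS hearts against 376 to 402 CPM in PPARα-deficient PBS hearts, and the chaperone sum is the one role whose LPS and PBS libraries overlap in PPARα-deficient hearts.

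Cell type markers moved with the treatment. The summed level of 8 cardiomyocyte markers was 35695 to 40115 CPM in PPARα-deficient LPS hearts against 55673 to 63365 CPM in PPARα-deficient PBS hearts, and 31584 to 37342 CPM in Ppara-Flox LPS hearts against 59976 to 67408 CPM in Ppara-Flox PBS hearts. The 8 neutrophil markers summed to 53.5 to 88.5 CPM against 4.06 to 11.6 CPM in PPARα-deficient hearts and to 61.6 to 111 CPM against 3.85 to 5.28 CPM in Ppara-Flox hearts, LPS before PBS, with Ly6g at 0 in all PBS libraries. The 8 macrophage markers summed to 161 to 224 CPM after LPS against 293 to 346 CPM after PBS in PPARα-deficient and 137 to 181 CPM against 262 to 313 CPM in Ppara-Flox hearts. Their members did not move as one, since in each genotype Lyz2, Csf1r, C1qc and Mrc1 fell, Cd68 rose and Adgre1, C1qa and C1qb were not called. The 5 smooth muscle and pericyte markers summed to 343 to 374 CPM after LPS against 679.7 to 760.03 CPM after PBS in PPARα-deficient hearts and to 359 to 430.1 CPM against 738 to 785 CPM in Ppara-Flox hearts, and 4 of 5 fell in each. The 6 endothelial markers summed to 698 to 737 CPM after LPS against 806 to 991 CPM after PBS in PPARα-deficient hearts and, with overlap, to 766 to 864 CPM against 853 to 933 CPM in Ppara-Flox hearts, and 2 of 6 fell in each. Of 6 fibroblast markers 1 rose and 3 fell in each genotype, with sums that overlapped, and the T, NK and B cell markers summed to under 3 CPM in every library. Their part in the proteasome results was not tested. In whole tissue, fewer cells of a type and less RNA per cell cannot be told apart.

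The alpha ring genes, which build the outer rings of the core and its gate, were called in 7 of 8 cases in each genotype. Their median log2 fold change was 0.49 in PPARα-deficient and 0.65 in Ppara-Flox hearts. These medians include Psma8, near the limit of detection, whose values of 0.46 in PPARα-deficient and 1.48 in Ppara-Flox hearts were not called. The gap between the medians comes mostly from that gene. Without it the median gene of the other 7 is Psma4 in PPARα-deficient and Psma2 in Ppara-Flox hearts. Those values, given further below, were nearly equal. Psma5 (chromosome 3, 108256926 to 108279974, plus strand, GRCm38), one of the 7 alpha subunits of the ring, stood at 48.6, 53.5, 49.2 and 43.0 CPM in PPARα-deficient LPS hearts and at 23.5, 23.3, 23.7 and 28.8 CPM in PPARα-deficient PBS hearts. In Ppara-Flox hearts it stood at 55.4, 55.6, 36.4 and 52.4 CPM after LPS and at 26.1, 26.8, 24.4 and 24.2 CPM after PBS. Every LPS library lay above every PBS library, and the lowest LPS value, in Ppara-Flox library 3, was still clear of the PBS range. The log2 fold change was 0.97 ± 0.12 (SE) in PPARα-deficient hearts (adjusted p = 9.49e-06) and 0.97 ± 0.12 in Ppara-Flox hearts (adjusted p = 7.98e-06), a fold of 1.95 and 1.97. No other called proteasome gene changed by more in either genotype.

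Psma7 (chromosome 2, 180036374 to 180042433, minus strand) stood at 83.04, 85.6, 76.9 and 72.3 CPM in PPARα-deficient LPS hearts and at 51.5, 49.9, 45.8 and 48.5 CPM in PPARα-deficient PBS hearts. The values were 87.2, 91.2, 72.5 and 80.7 CPM in Ppara-Flox LPS hearts and 48.2, 51.2, 50.1 and 46.8 CPM in Ppara-Flox PBS hearts. The groups did not overlap in either genotype, and the log2 fold change was 0.70 ± 0.08 (SE) in PPARα-deficient hearts (adjusted p = 4.48e-06) and 0.76 ± 0.08 in Ppara-Flox hearts (adjusted p = 1.89e-06). Psma3 (chromosome 12, 70974621 to 70996347, plus strand) stood at 48.9, 53.7, 55.2 and 47.6 CPM in PPARα-deficient LPS hearts and at 31.1, 30.6, 35.2 and 33.0 CPM in PPARα-deficient PBS hearts. It stood at 55.3, 50.7, 45.2 and 59.9 CPM in Ppara-Flox LPS hearts and at 32.6, 32.7, 27.4 and 30.8 CPM in Ppara-Flox PBS hearts. Again no LPS library fell into the PBS range, with log2 fold changes of 0.66 ± 0.09 (adjusted p = 3.35e-05) in PPARα-deficient and 0.77 ± 0.09 (adjusted p = 6.67e-06) in Ppara-Flox hearts.

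Psma1 (chromosome 7, 114264606 to 114276118, minus strand) moved least among the alpha genes. It stood at 101, 102, 96.3 and 106 CPM in PPARα-deficient LPS hearts and at 89.5, 80.7, 84.0 and 90.2 CPM in PPARα-deficient PBS hearts. In Ppara-Flox hearts the values were 118, 109, 88.5 and 105 CPM after LPS and 82.2, 94.3, 81.3 and 90.3 CPM after PBS, where LPS library 3 lay inside the PBS range. Psma1 had a log2 fold change of 0.23 ± 0.09 (SE, adjusted p = 0.0403) in PPARα-deficient and 0.27 ± 0.09 (adjusted p = 0.018) in Ppara-Flox hearts. Without any one of Ppara-Flox PBS library 3, PPARα-deficient PBS library 1, 2 or 3, or PPARα-deficient LPS library 1, 2 or 4, the call in PPARα-deficient hearts was lost, with an adjusted p of 0.0501 to 0.107 (0.0205 to 0.107 over all alternatives). In Ppara-Flox hearts it was lost without PBS library 1 or 3 or LPS library 1, at 0.0529 to 0.0733 (0.00326 to 0.0733 over all alternatives). The remaining called alpha genes were Psma2, with log2 fold changes of 0.46 and 0.55, Psma4, with 0.53 and 0.48, and Psma6, with 0.42 and 0.41, the PPARα-deficient value first in each pair.

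Psma8 encodes an alpha subunit of the proteasomes of male germ cells and was near the limit of detection in the heart. Its level was 0.279 to 0.944 CPM in PPARα-deficient LPS, 0.187 to 0.726 CPM in PPARα-deficient PBS, 0.344 to 1.01 CPM in Ppara-Flox LPS and 0.0712 to 0.512 CPM in Ppara-Flox PBS hearts, with all groups overlapping. A count of 0 would allow up to 0.159 to 0.183 CPM, taking 3 read pairs as 12 estimated counts, which covers counting error only. The log2 fold change of 1.48 ± 0.64 in Ppara-Flox hearts did not pass the test (adjusted p = 0.08), but did without Ppara-Flox PBS library 1 (adjusted p = 0.0165, range over all alternatives 0.0165 to 0.213).

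**Figure D2:**
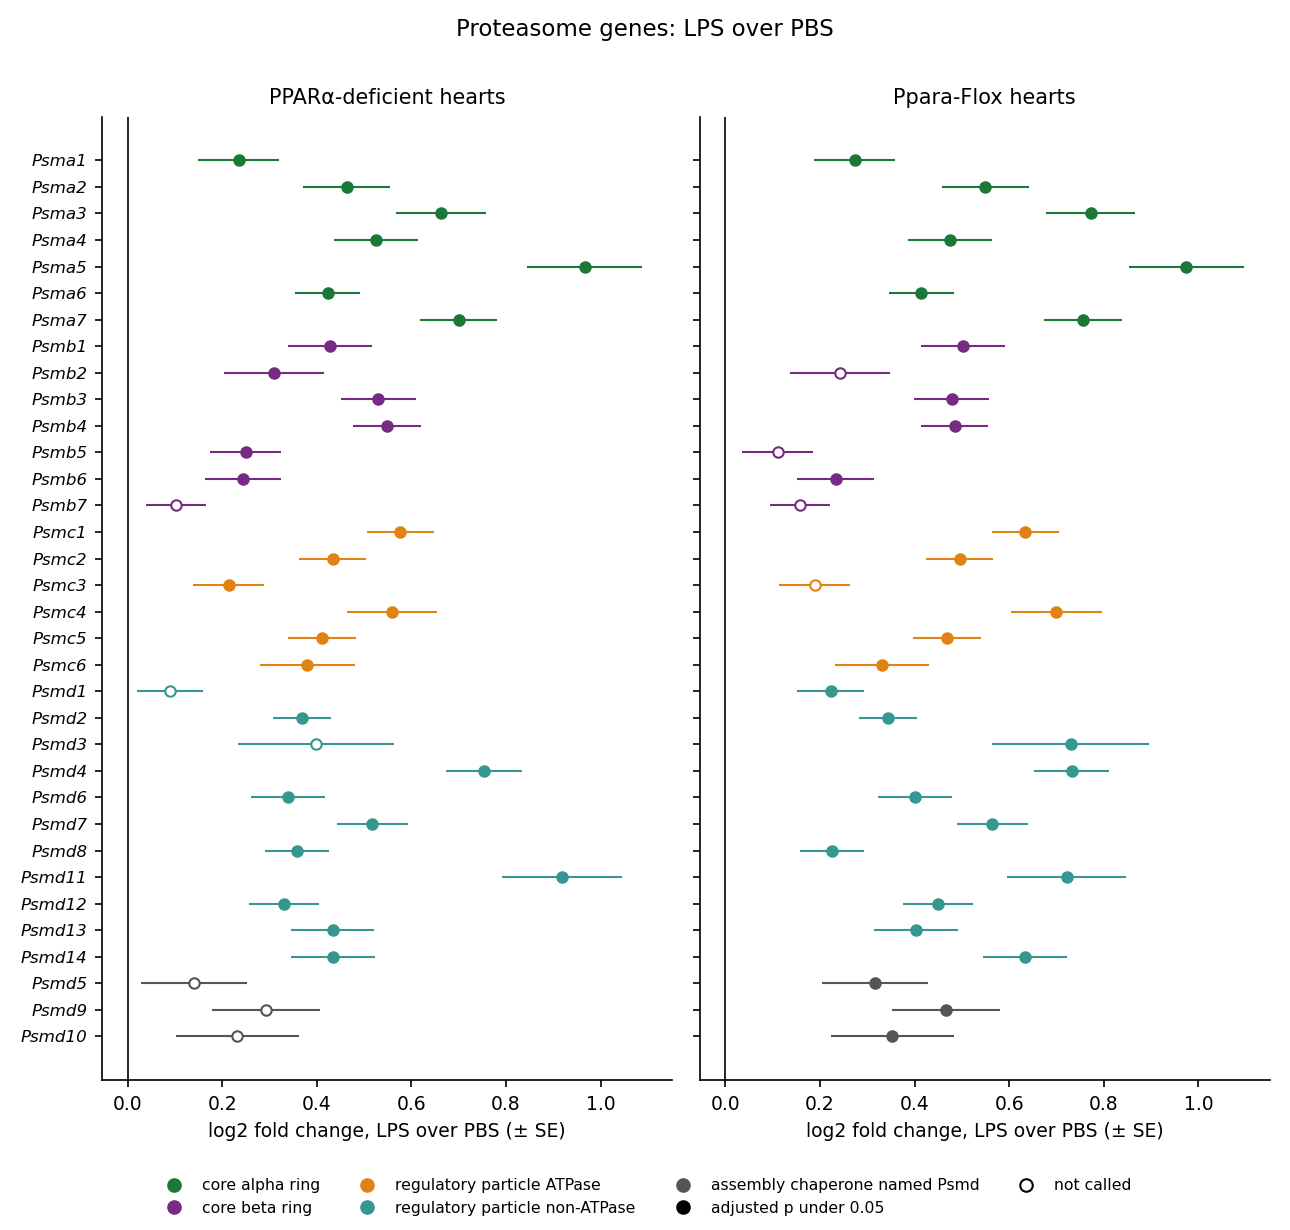
Log2 fold change, LPS over PBS, with its standard error (horizontal bars) for 34 proteasome genes, in PPARα-deficient hearts (left) and Ppara-Flox hearts (right); Psma8 and Psmb11, at or near 0 CPM, are not drawn. Filled points passed an adjusted p of 0.05, colours give the role, and every point lies to the right of 0, with Psma5 at 0.97 in both panels.

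The beta ring genes line the chamber in which proteins are cut. In PPARα-deficient hearts 6 of the 7 tested rose, with a median log2 fold change of 0.31, and in Ppara-Flox hearts 4 of 7 rose, with a median of 0.24. Psmb1, Psmb3 and Psmb4, which encode structural subunits with no cutting site, had log2 fold changes of 0.43, 0.53 and 0.55 in PPARα-deficient hearts and of 0.50, 0.48 and 0.48 in Ppara-Flox hearts, all called. Psmb2, also structural, rose by 0.31 ± 0.11 (SE, adjusted p = 0.0287) in PPARα-deficient hearts, and its value of 0.24 ± 0.11 in Ppara-Flox hearts did not pass (adjusted p = 0.0806). Its call was lost without PPARα-deficient PBS library 1, 2 or 3 or LPS library 2 or 3, at 0.0546 to 0.0996 (0.00745 to 0.0996 over all alternatives), and one was gained in Ppara-Flox hearts without LPS library 3, at 0.0253 (0.0126 to 0.301 over all alternatives). Psmb11, the catalytic gene of thymic epithelium, was at 0 in all libraries but Ppara-Flox LPS library 1, where it stood at 0.119 CPM, under the limit that a count of 0 allows.

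The 3 constitutive catalytic genes had lower log2 fold changes than the 4 structural genes in each genotype, a difference that was not tested. Psmb5 (chromosome 14, 54614119 to 54618022, minus strand), for the chymotrypsin-like site, stood at 96.0, 86.7, 86.5 and 88.6 CPM in PPARα-deficient LPS hearts and at 77.1, 78.6, 76.0 and 69.4 CPM in PPARα-deficient PBS hearts. In Ppara-Flox hearts it stood at 94.7, 85.1, 89.2 and 79.6 CPM after LPS and at 76.5, 87.4, 82.7 and 76.4 CPM after PBS. The groups were apart in PPARα-deficient hearts and overlapped in Ppara-Flox hearts, and the log2 fold change was 0.25 ± 0.08 (SE, adjusted p = 0.0151) in PPARα-deficient against 0.11 ± 0.08 (adjusted p = 0.274) in Ppara-Flox hearts. The call was lost without PPARα-deficient PBS library 4 or LPS library 1, at an adjusted p of 0.0525 and 0.0542 (0.00794 to 0.0614 over all alternatives).

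Psmb6 (chromosome 11, 70525367 to 70527858, plus strand), for the caspase-like site, stood at 115, 115, 95.5 and 108 CPM in PPARα-deficient LPS hearts and at 89.6, 92.7, 90.4 and 93.8 CPM in PPARα-deficient PBS hearts. Its values were 108, 115, 105 and 105 CPM in Ppara-Flox LPS hearts and 81.9, 103, 95.9 and 88.4 CPM in Ppara-Flox PBS hearts. Both pairs of groups were just apart, with log2 fold changes of 0.24 ± 0.08 (SE, adjusted p = 0.0247) in PPARα-deficient and 0.23 ± 0.08 (adjusted p = 0.0304) in Ppara-Flox hearts. The call in PPARα-deficient hearts was lost without PBS library 1 or 3 or LPS library 1 or 2 of that genotype, at 0.0558 to 0.0736 (0.00776 to 0.0812 over all alternatives). In Ppara-Flox hearts it was lost without PBS library 1 or 4 or LPS library 1 or 2, at 0.0583 to 0.104 (0.012 to 0.122 over all alternatives).

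Psmb7 (chromosome 2, 38588036 to 38644087, minus strand), for the trypsin-like site, stood at 128, 132, 130 and 130 CPM in PPARα-deficient LPS hearts and at 124, 117, 119 and 124 CPM in PPARα-deficient PBS hearts. In Ppara-Flox hearts it stood at 137, 138, 130 and 134 CPM after LPS and at 123, 130, 109 and 120 CPM after PBS. Its log2 fold changes of 0.10 ± 0.06 (SE, adjusted p = 0.232) in PPARα-deficient and of 0.16 ± 0.06 (adjusted p = 0.0614) in Ppara-Flox hearts did not pass the test, although the LPS libraries of PPARα-deficient hearts lay above the PBS ones. Without Ppara-Flox PBS library 2 the Ppara-Flox value passed (adjusted p = 0.0278, 0.0135 to 0.25 over all alternatives).

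The inducible counterparts of these genes rose far more. Psmb8 averaged 62.0 ± 16.5 CPM in PPARα-deficient LPS hearts and 8.29 ± 1.29 CPM in PPARα-deficient PBS hearts (SD, n = 4 each), and 52.0 ± 14.8 CPM in Ppara-Flox LPS hearts and 8.40 ± 0.957 CPM in Ppara-Flox PBS hearts. Psmb9 averaged 29.6 ± 9.08 CPM against 4.43 ± 0.996 CPM in PPARα-deficient and 25.04 ± 4.25 CPM against 4.24 ± 0.571 CPM in Ppara-Flox hearts, LPS before PBS. Psmb10 averaged 123 ± 43.5 CPM against 24.8 ± 1.83 CPM in PPARα-deficient and 91.2 ± 31.2 CPM against 23.5 ± 2.54 CPM in Ppara-Flox hearts. The LPS values of these genes were spread widely, while those of Psmb5, Psmb6 and Psmb7 were tight.

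Set against its constitutive partner per kilobase of transcript, Psmb8 was 0.385 ± 0.113 of Psmb5 in PPARα-deficient LPS hearts and 0.0607 ± 0.00765 in PPARα-deficient PBS hearts (SD, n = 4 each, exact two-sided permutation p = 0.0286). In Ppara-Flox hearts the ratio was 0.334 ± 0.117 after LPS and 0.0577 ± 0.00885 after PBS. The ratio of Psmb9 to Psmb6 was 0.164 ± 0.0604 against 0.0286 ± 0.00693 in PPARα-deficient and 0.137 ± 0.0252 against 0.0272 ± 0.00239 in Ppara-Flox hearts, LPS before PBS. That of Psmb10 to Psmb7 was 0.836 ± 0.294 against 0.182 ± 0.0161 in PPARα-deficient and 0.599 ± 0.204 against 0.172 ± 0.0160 in Ppara-Flox hearts. In each of the 6 comparisons every LPS library lay above every PBS library, and the exact permutation p of each, 0.0286 raw and adjusted over the 6, is the smallest that 4 against 4 hearts can give. The 3 transcripts of inducible subunits remained below those of their constitutive partners on average in all 4 groups, although Psmb10 reached 1.27 times Psmb7 in 1 PPARα-deficient LPS heart.

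**Figure D3:**
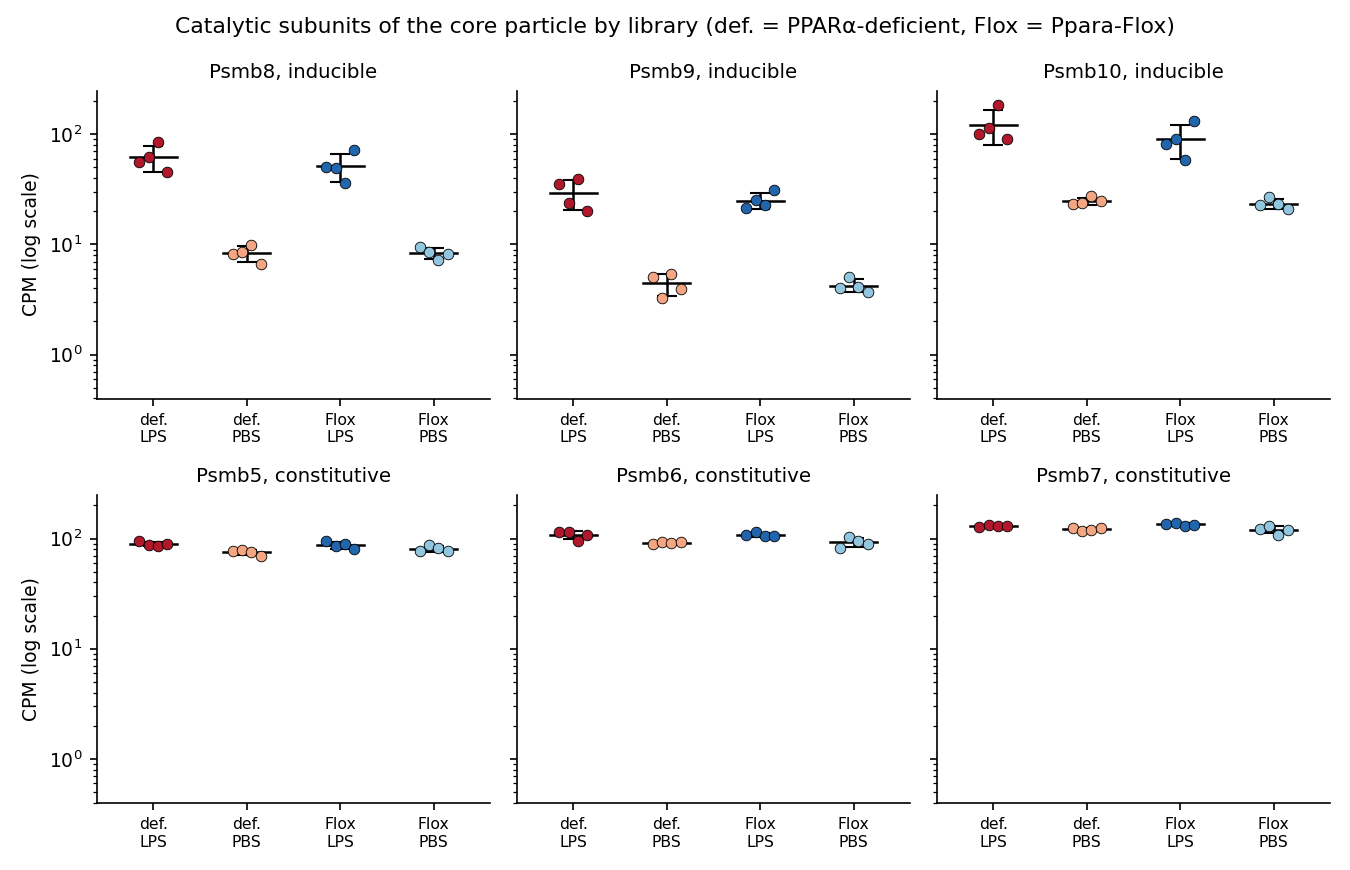
CPM on a log axis of the 3 inducible catalytic genes (top row) and of the constitutive gene for the same site (bottom row) in every library (points), with the mean and SD of 4 hearts; PPARα-deficient LPS, PPARα-deficient PBS, Ppara-Flox LPS and Ppara-Flox PBS from left to right. Psmb8 averages 62.0 CPM in PPARα-deficient LPS hearts against 8.29 CPM in PPARα-deficient PBS hearts, while Psmb5 averages 89.5 CPM against 75.3 CPM.

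The ATPases of the regulatory particle form a ring that docks on the alpha ring and unfolds the substrate. All 6 of their genes rose in PPARα-deficient hearts and 5 of 6 in Ppara-Flox hearts, with median log2 fold changes of 0.42 and 0.48. Psmc1 rose by 0.58 ± 0.07 (SE) in PPARα-deficient and 0.63 ± 0.07 in Ppara-Flox hearts. It averaged 138 ± 4.63 CPM after LPS and 92.3 ± 4.44 CPM after PBS in PPARα-deficient hearts (SD, n = 4 each), and 147 ± 12.2 CPM after LPS and 95.02 ± 3.52 CPM after PBS in Ppara-Flox hearts. Psmc4 rose by 0.56 ± 0.10 and 0.70 ± 0.10, Psmc2 by 0.43 ± 0.07 and 0.50 ± 0.07, Psmc5 by 0.41 ± 0.07 and 0.47 ± 0.07, and Psmc6 by 0.38 ± 0.10 and 0.33 ± 0.10, PPARα-deficient hearts first. The Ppara-Flox call of Psmc6 was lost without PBS library 3 (adjusted p = 0.0541, 0.00140 to 0.0541 over all alternatives).

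Psmc3 (chromosome 2, 91054009 to 91066369, plus strand), an ATPase whose tail inserts into the alpha ring, had the smallest change of the ring. It stood at 164, 158, 148 and 159 CPM in PPARα-deficient LPS hearts and at 142, 141, 130 and 130 CPM in PPARα-deficient PBS hearts. The Ppara-Flox values were 158, 165, 157 and 147 CPM after LPS and 127, 152, 145 and 125 CPM after PBS, with LPS library 4 inside the PBS range. Its log2 fold change was 0.21 ± 0.08 (SE, adjusted p = 0.0339) in PPARα-deficient hearts and 0.19 ± 0.08 (adjusted p = 0.0564) in Ppara-Flox hearts, so nearly equal values lay on either side of the threshold. The call in PPARα-deficient hearts was lost without PBS library 3 or 4 or LPS library 1, 2 or 4 of that genotype or without Ppara-Flox LPS library 3, at an adjusted p of 0.0523 to 0.0888 (0.0253 to 0.119 over all alternatives). In Ppara-Flox hearts a call was gained without PBS library 2 or LPS library 4, at 0.0214 and 0.0475 (0.0214 to 0.222 over all alternatives). Exons of Psmc3 overlap those of Slc39a13 on the other strand over 215 bases, and since the strand setting of the counting is not given, reads there cannot be assigned. Slc39a13 counts were 15.5% of those of Psmc3.

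The non-ATPase genes of the regulatory particle rose in 9 of 11 cases in PPARα-deficient and in 11 of 11 in Ppara-Flox hearts, with median log2 fold changes of 0.40 and 0.45. Psmd11 (chromosome 11, 80428615 to 80473248, plus strand), a subunit that holds the regulatory particle to the core, stood at 117, 116, 117 and 78.3 CPM in PPARα-deficient LPS hearts and at 62.1, 55.6, 46.6 and 62.1 CPM in PPARα-deficient PBS hearts. In Ppara-Flox hearts it stood at 110, 109, 92.4 and 109 CPM after LPS and at 67.9, 58.8, 60.3 and 68.1 CPM after PBS. One LPS library in each genotype was low, yet above all PBS libraries. The log2 fold change was 0.92 ± 0.13 (SE, adjusted p = 2.42e-05) in PPARα-deficient and 0.72 ± 0.13 (adjusted p = 0.00023) in Ppara-Flox hearts.

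Psmd4 (chromosome 3, 95032694 to 95042614, minus strand), a receptor for ubiquitin chains, stood at 122, 121, 110 and 115 CPM in PPARα-deficient LPS hearts and at 77.2, 70.4, 67.5 and 63.0 CPM in PPARα-deficient PBS hearts. It stood at 125, 125, 116 and 110 CPM in Ppara-Flox LPS hearts and at 68.1, 76.9, 74.6 and 66.4 CPM in Ppara-Flox PBS hearts. The groups lay far apart in both genotypes, with log2 fold changes of 0.75 ± 0.08 (SE, adjusted p = 1.6e-06) in PPARα-deficient and 0.73 ± 0.08 (adjusted p = 1.99e-06) in Ppara-Flox hearts. Psmd14 (chromosome 2, 61711694 to 61800376, plus strand), the deubiquitinase that strips the chain before entry, stood at 40.2, 39.9, 46.0 and 39.0 CPM in PPARα-deficient LPS hearts and at 28.0, 30.5, 30.1 and 33.5 CPM in PPARα-deficient PBS hearts. Its values were 46.9, 45.8, 40.9 and 46.8 CPM in Ppara-Flox LPS hearts and 27.9, 29.8, 25.9 and 32.6 CPM in Ppara-Flox PBS hearts. Again the groups were apart, and Psmd14 rose by 0.43 ± 0.09 (SE, adjusted p = 0.000917) in PPARα-deficient and 0.63 ± 0.09 (adjusted p = 2.65e-05) in Ppara-Flox hearts.

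Psmd1 and Psmd2 encode the large scaffold subunits at the base of the particle. Psmd2, with 231 ± 3.30 CPM in PPARα-deficient LPS and 179 ± 7.99 CPM in PPARα-deficient PBS hearts, and 240 ± 11.7 CPM in Ppara-Flox LPS and 189 ± 8.03 CPM in Ppara-Flox PBS hearts (SD, n = 4 each), rose by 0.37 ± 0.06 (SE) and 0.34 ± 0.06 in PPARα-deficient and Ppara-Flox hearts. Psmd1 (chromosome 1, 86064387 to 86139151, plus strand) stood at 112, 110, 120 and 109 CPM in PPARα-deficient LPS hearts and at 105, 101, 112 and 105 CPM in PPARα-deficient PBS hearts, with overlap. It stood at 135, 122, 126 and 139 CPM in Ppara-Flox LPS hearts and at 106, 116, 105 and 120 CPM in Ppara-Flox PBS hearts, where the groups were apart. The log2 fold change of 0.09 ± 0.07 (SE, adjusted p = 0.352) in PPARα-deficient hearts did not pass, and that of 0.22 ± 0.07 (adjusted p = 0.0186) in Ppara-Flox hearts did. The Ppara-Flox call was lost without PBS library 1 or 3 or LPS library 1 or 4, at 0.0544 to 0.0758 (0.00389 to 0.0758 over all alternatives).

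Psmd3 (chromosome 11, 98682554 to 98695979, plus strand), a subunit of the lid, varied widely within groups. It stood at 180, 133, 126 and 122 CPM in PPARα-deficient LPS hearts and at 98.8, 93.3, 113 and 121 CPM in PPARα-deficient PBS hearts. It stood at 203, 192, 127 and 186 CPM in Ppara-Flox LPS hearts and at 94.2, 139, 96.4 and 96.9 CPM in Ppara-Flox PBS hearts. Ppara-Flox LPS library 3 and PBS library 2 crossed over, and the log2 fold change was 0.40 ± 0.17 (SE, adjusted p = 0.0695) in PPARα-deficient and 0.73 ± 0.17 (adjusted p = 0.00215) in Ppara-Flox hearts. Without Ppara-Flox PBS library 2 or LPS library 3 the PPARα-deficient value passed, at 0.0438 and 0.0466 (0.0416 to 0.252 over all alternatives).

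Psmd8 (chromosome 7, 29174188 to 29180701, minus strand), another lid subunit, stood at 77.0, 83.5, 77.0 and 73.2 CPM in PPARα-deficient LPS hearts and at 57.3, 62.0, 61.3 and 61.7 CPM in PPARα-deficient PBS hearts. It stood at 77.8, 73.5, 76.0 and 73.3 CPM in Ppara-Flox LPS hearts and at 64.2, 68.8, 59.4 and 64.6 CPM in Ppara-Flox PBS hearts. Both pairs of groups were apart, with log2 fold changes of 0.36 ± 0.07 (SE, adjusted p = 0.000456) in PPARα-deficient and 0.23 ± 0.07 (adjusted p = 0.0132) in Ppara-Flox hearts. The Ppara-Flox call was lost without PBS library 3 (adjusted p = 0.0635, 0.00369 to 0.064 over all alternatives). The other lid genes, Psmd6, Psmd7, Psmd12 and Psmd13, rose by 0.34, 0.52, 0.33 and 0.43 in PPARα-deficient and by 0.40, 0.56, 0.45 and 0.40 in Ppara-Flox hearts. Psmd13 shares 342 exon bases with Sirt3 on the other strand, whose counts were 56.9% of its own, and is therefore uncertain.

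**Figure D4:**
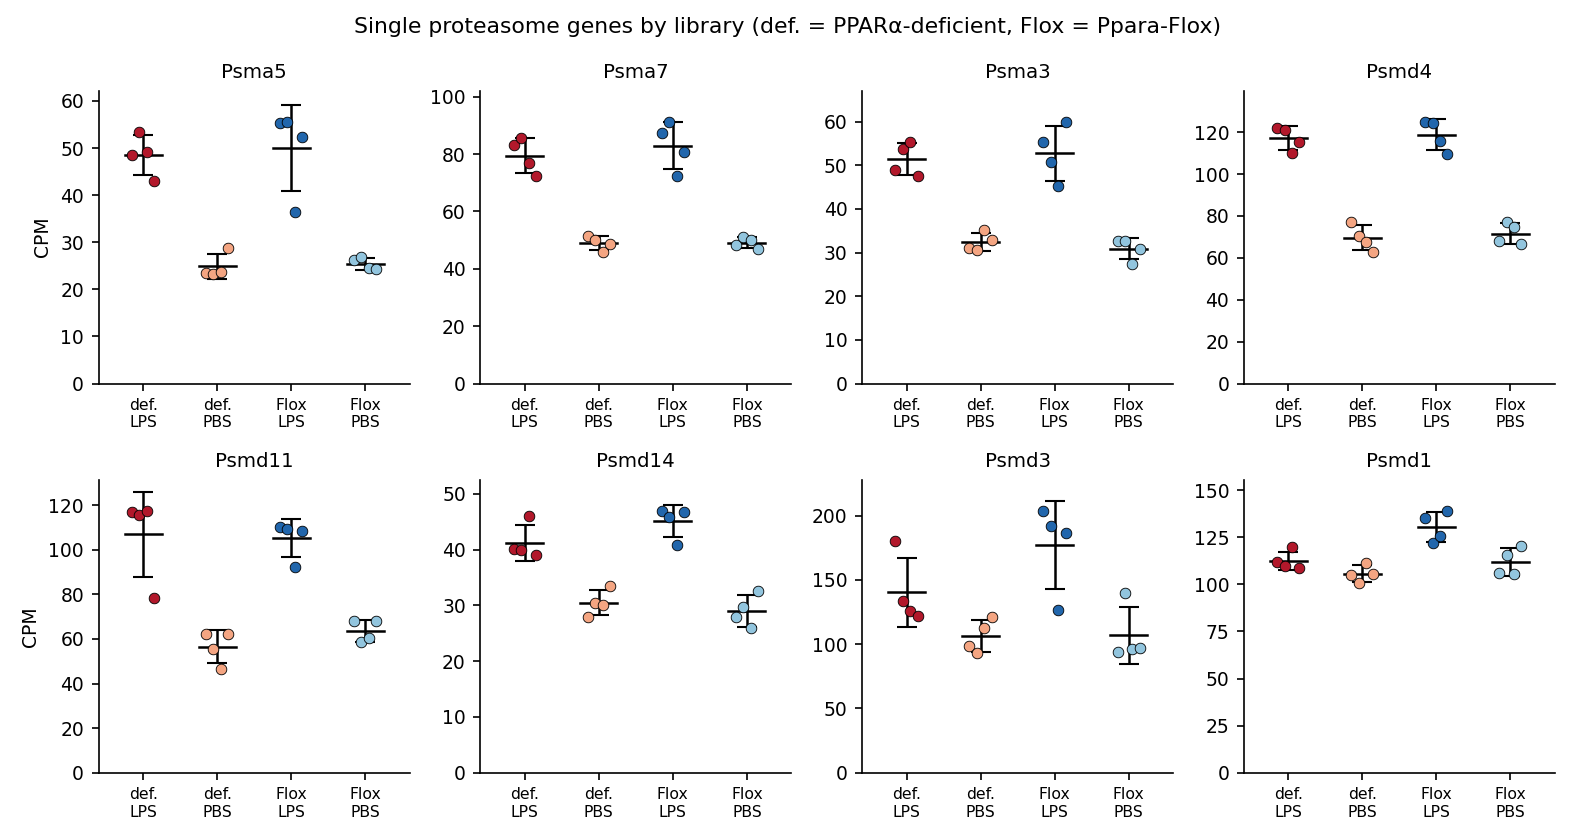
CPM of 8 proteasome genes in every library (points), with the mean and SD of 4 hearts; PPARα-deficient LPS, PPARα-deficient PBS, Ppara-Flox LPS and Ppara-Flox PBS from left to right. Psma5, Psma7, Psma3, Psmd4, Psmd11 and Psmd14 keep LPS and PBS libraries apart in both genotypes, while Psmd3 overlaps between LPS and PBS in Ppara-Flox hearts and Psmd1 in PPARα-deficient hearts.

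The 3 chaperone genes have products that assemble the base of the regulatory particle and leave it. They were called in 0 of 3 cases in PPARα-deficient and in 3 of 3 in Ppara-Flox hearts, where 19.4% and 20.2% of all genes rose. In PPARα-deficient hearts 1 had an unadjusted p under 0.05 by edgeR, 1 was called by limma-voom and 0 by DESeq2. Their responses, PPARα-deficient minus Ppara-Flox, differed by only -0.18 to -0.12 on the log2 scale. In the interaction test given below 0 of these 3 differences had an unadjusted p under 0.05, so a genotype difference was not shown. Psmd9 (chromosome 5, 123169413 to 123250131, plus strand) stood at 16.5, 15.6, 14.5 and 17.3 CPM in PPARα-deficient LPS hearts and at 12.9, 13.5, 12.1 and 13.7 CPM in PPARα-deficient PBS hearts. It stood at 18.6, 20.4, 18.6 and 18.3 CPM in Ppara-Flox LPS hearts and at 12.4, 17.1, 14.1 and 11.2 CPM in Ppara-Flox PBS hearts. Both pairs of groups were apart, and the log2 fold change was 0.29 ± 0.11 (SE, adjusted p = 0.053) in PPARα-deficient and 0.47 ± 0.11 (adjusted p = 0.00364) in Ppara-Flox hearts. The PPARα-deficient value passed without Ppara-Flox PBS library 2 or 4 or PPARα-deficient LPS library 3, at 0.0234 to 0.0448 (0.0234 to 0.134 over all alternatives).

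Psmd10 (chromosome X, 140948429 to 140956728, minus strand), known as gankyrin, stood at 11.4, 11.3, 9.58 and 9.42 CPM in PPARα-deficient LPS hearts and at 9.49, 8.46, 8.09 and 9.45 CPM in PPARα-deficient PBS hearts. It stood at 9.91, 11.5, 9.57 and 8.89 CPM in Ppara-Flox LPS hearts and at 8.69, 8.88, 6.25 and 7.41 CPM in Ppara-Flox PBS hearts. The PPARα-deficient groups overlapped (0.23 ± 0.13, adjusted p = 0.178), and the Ppara-Flox groups were apart by 8.89 against 8.88 CPM (0.35 ± 0.13, adjusted p = 0.0404). That call was lost without Ppara-Flox PBS library 3 or 4 or LPS library 1, 2 or 3, at 0.0656 to 0.152 (0.0146 to 0.152 over all alternatives). Psmd5 had a log2 fold change of 0.14 ± 0.11 (adjusted p = 0.356) in PPARα-deficient and 0.32 ± 0.11 (adjusted p = 0.033) in Ppara-Flox hearts, a call lost without PBS library 1, 2 or 3 or LPS library 2, 3 or 4 of that genotype, at 0.0548 to 0.0858 (0.0151 to 0.0858 over all alternatives).

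Levels were also set per kilobase of 1 GENCODE vM21 transcript a gene, the longest protein-coding one that carries the top APPRIS principal mark or, for Psmd4, Psmd8 and Psmd10, which have none so marked, the longest protein-coding one. Psma8 and Psmb11, near or at 0, are left out of these medians. In PPARα-deficient LPS hearts the median level was 68.0 CPM per kilobase for 7 alpha genes, 99.5 for 7 beta genes, 65.6 for the ATPases, 44.9 for the non-ATPases and 6.15 for the 3 chaperones. The same medians in PPARα-deficient PBS hearts were 47.3, 83.7, 49.0, 35.5 and 5.02 CPM per kilobase. They were 69.6, 96.9, 66.6, 48.0 and 6.97 CPM per kilobase in Ppara-Flox LPS hearts and 50.05, 89.8, 47.7, 36.4 and 5.28 CPM per kilobase in Ppara-Flox PBS hearts. The highest single level was that of Psmb4 after LPS, 145 ± 4.00 CPM per kilobase in PPARα-deficient and 139 ± 3.38 in Ppara-Flox hearts, and that of Psmb6 after PBS, 115 ± 2.47 in PPARα-deficient and 116 ± 11.3 in Ppara-Flox hearts (SD, n = 4 each). Psma3 was the lowest of the 7 alpha genes in every group, at 18.0 CPM per kilobase in PPARα-deficient LPS, 11.4 in PPARα-deficient PBS, 18.5 in Ppara-Flox LPS and 10.9 in Ppara-Flox PBS hearts. Its rank depends on the transcript chosen, which had 2846 bases for Psma3 and 2911 for Psma2. The others of the 7 had 914 (Psma7) to 1239 (Psma5) bases. Psma3 also has a copy that could take its reads.

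Several proteasome genes have near-identical copies that could take their reads. Of the 36 genes, 9 aligned to 15 other genes at 95% identity or more over at least 200 bases. For 6 of the 9, another gene had more than 1% of their counts. Gm21972, matched to Psmd1, is not a copy elsewhere but shares 301 exon bases with it on the same strand. For Psma3 the copy Gm13835, identical over 665 bases, had counts equal to 49.4% of its own and rose by 0.86 ± 0.14 (SE) in PPARα-deficient and 0.88 ± 0.14 in Ppara-Flox hearts, so the split between them is uncertain. Summed, Psma3 and Gm13835 averaged 77.5 ± 4.83 CPM in PPARα-deficient LPS hearts and 46.9 ± 5.06 CPM in PPARα-deficient PBS hearts, and 80.2 ± 9.03 CPM in Ppara-Flox LPS hearts and 45.7 ± 3.02 CPM in Ppara-Flox PBS hearts (SD, n = 4 each), log2 ratios of 0.73 and 0.81. For Psma5 the copies Gm12989 and Gm8394 had 7.44% and 8.15% of its counts, and the log2 ratio of the summed means was 0.93 in PPARα-deficient and 0.96 in Ppara-Flox hearts. Psmb7 shares 405 exon bases with Nek6 on the other strand, which had 10.1% of its counts, and Psmd9 shares 1849 with Gm26745.

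Other genes of the same machine did not all move with the subunits. Of the 5 activator and inhibitor genes 4 rose and 1 fell in PPARα-deficient hearts, and 3 rose and 1 fell in Ppara-Flox hearts. Over all genes tested 19.4% rose and 18.3% fell in PPARα-deficient hearts, and 20.2% rose and 19.1% fell in Ppara-Flox hearts. Psme1 and Psme2, which encode the interferon-induced activator cap, rose by 1.19 ± 0.14 (SE) and 1.73 ± 0.18 in PPARα-deficient and by 0.97 ± 0.14 and 1.54 ± 0.18 in Ppara-Flox hearts, with Psme2 uncertain because of its near-identical copy Psme2b. Psme1 averaged 117 ± 21.2 CPM in PPARα-deficient LPS and 51.5 ± 2.59 CPM in PPARα-deficient PBS hearts, and 99.8 ± 19.7 CPM in Ppara-Flox LPS and 51.1 ± 5.87 CPM in Ppara-Flox PBS hearts (SD, n = 4 each). Psme2 averaged 66.9 ± 14.1 CPM in PPARα-deficient LPS and 20.2 ± 0.504 CPM in PPARα-deficient PBS hearts, and 54.8 ± 15.6 CPM in Ppara-Flox LPS and 18.9 ± 2.999 CPM in Ppara-Flox PBS hearts (SD, n = 4 each). Psmf1, an inhibitor of the core, rose by 0.56 ± 0.10 and 0.65 ± 0.10. Psme4, an activator cap of the nucleus, fell to 170 ± 13.8 CPM in PPARα-deficient LPS hearts, against 237 ± 35.1 CPM in PPARα-deficient PBS hearts, and to 178 ± 9.18 CPM in Ppara-Flox LPS hearts, against 268 ± 39.0 CPM in Ppara-Flox PBS hearts (SD, n = 4 each). Its log2 fold change was -0.47 ± 0.11 (adjusted p = 0.00332) in PPARα-deficient and -0.59 ± 0.11 (adjusted p = 0.000549) in Ppara-Flox hearts. Psme3, also a nuclear activator, rose by 0.22 ± 0.08 (adjusted p = 0.035) in PPARα-deficient hearts and had 0.15 ± 0.08 (adjusted p = 0.148) in Ppara-Flox hearts. Psme3 averaged 79.4 ± 2.31 CPM in PPARα-deficient LPS and 68.4 ± 5.702 CPM in PPARα-deficient PBS hearts, and 77.3 ± 5.26 CPM in Ppara-Flox LPS and 69.9 ± 4.23 CPM in Ppara-Flox PBS hearts (SD, n = 4 each). Psmf1 averaged 20.6 ± 1.098 CPM in PPARα-deficient LPS and 13.9 ± 1.74 CPM in PPARα-deficient PBS hearts, and 22.6 ± 1.82 CPM in Ppara-Flox LPS and 14.4 ± 0.878 CPM in Ppara-Flox PBS hearts (SD, n = 4 each).

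Of 4 regulatory particle genes with other names, Adrm1, a ubiquitin receptor, rose by 0.67 ± 0.10 (SE) in PPARα-deficient and 0.65 ± 0.10 in Ppara-Flox hearts. Adrm1 averaged 114 ± 11.1 CPM in PPARα-deficient LPS and 71.4 ± 4.24 CPM in PPARα-deficient PBS hearts, and 116 ± 14.5 CPM in Ppara-Flox LPS and 74.2 ± 6.04 CPM in Ppara-Flox PBS hearts (SD, n = 4 each). The small subunit gene Sem1 and the deubiquitinase genes Uchl5 and Usp14 were not called, with log2 fold changes of -0.0034, -0.07 and -0.06 in PPARα-deficient and of -0.12, 0.16 and -0.02 in Ppara-Flox hearts. Of 9 assembly genes, the 3 Psmd chaperones among them, 2 rose and 2 fell in PPARα-deficient hearts and 5 rose and 1 fell in Ppara-Flox hearts. The share that rose was 22.2% in PPARα-deficient hearts, near the 19.4% of all genes, and 55.6% against 20.2% in Ppara-Flox hearts. Over all genes 18.3% and 19.1% fell. Pomp averaged 82.8 ± 10.1 CPM in PPARα-deficient LPS and 53.2 ± 3.58 CPM in PPARα-deficient PBS hearts, and 81.5 ± 12.3 CPM in Ppara-Flox LPS and 48.4 ± 4.25 CPM in Ppara-Flox PBS hearts (SD, n = 4 each). Pomp, which matures the core, rose by 0.64 ± 0.11 and 0.75 ± 0.11 and Psmg4, an alpha ring chaperone, by 0.90 ± 0.18 and 0.79 ± 0.18, PPARα-deficient hearts first. Psmg4 averaged 8.31 ± 1.63 CPM in PPARα-deficient LPS and 4.44 ± 0.325 CPM in PPARα-deficient PBS hearts, and 7.78 ± 1.096 CPM in Ppara-Flox LPS and 4.48 ± 1.04 CPM in Ppara-Flox PBS hearts (SD, n = 4 each). Psmg1, another alpha ring chaperone, fell by 0.45 and 0.49 on the log2 scale, and Ecpas, an adaptor of the proteasome, fell by 0.21 (adjusted p = 0.0475) in PPARα-deficient hearts and had a log2 fold change of -0.11 (adjusted p = 0.293) in Ppara-Flox hearts.

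A further list of 5 genes held the transcription factor genes Nfe2l1 and Nfe2l2, Ddi2 and Ngly1, whose products act on the Nfe2l1 protein, and Akirin2. Of these 5 genes 1 rose in PPARα-deficient hearts, and 3 rose and 1 fell in Ppara-Flox hearts. The share that rose was 20% in PPARα-deficient hearts, near the 19.4% of all genes, and 60% against 20.2% in Ppara-Flox hearts. Over all genes 18.3% and 19.1% fell. Nfe2l2 rose by 0.74 ± 0.11 (SE) in PPARα-deficient and 0.72 ± 0.11 in Ppara-Flox hearts. Nfe2l2 averaged 113 ± 16.5 CPM in PPARα-deficient LPS and 67.4 ± 6.57 CPM in PPARα-deficient PBS hearts, and 118 ± 12.5 CPM in Ppara-Flox LPS and 71.7 ± 6.49 CPM in Ppara-Flox PBS hearts (SD, n = 4 each). Nfe2l1 stood at 140, 434, 192 and 156 CPM in PPARα-deficient LPS hearts and at 121, 131, 141 and 154 CPM in PPARα-deficient PBS hearts, and at 471, 159, 164 and 154 CPM in Ppara-Flox LPS hearts and 554, 210, 198 and 237 CPM in Ppara-Flox PBS hearts. Single libraries of 3 groups were far above the rest, and its log2 fold changes of 0.75 ± 0.42 and -0.34 ± 0.42 did not pass (adjusted p = 0.179 and 0.571). Akirin2, which carries proteasomes into the nucleus, fell by 0.27 (adjusted p = 0.0138) in Ppara-Flox hearts, and its -0.18 in PPARα-deficient hearts did not pass (adjusted p = 0.0846). Ngly1, which removes the sugar chains of the Nfe2l1 protein, rose by 0.26 ± 0.08 (adjusted p = 0.0205) in Ppara-Flox hearts, with 0.17 ± 0.08 (adjusted p = 0.134) in PPARα-deficient hearts.

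Among 15 genes of ubiquitin and its shuttling, 7 rose and 1 fell in each genotype. The share that rose was 46.7%, against 19.4% of all genes in PPARα-deficient and 20.2% in Ppara-Flox hearts. Over all genes 18.3% and 19.1% fell. The polyubiquitin gene Ubb averaged 1099 ± 115 CPM in PPARα-deficient LPS hearts and 443 ± 30.1 CPM in PPARα-deficient PBS hearts, and 1152 ± 119 CPM in Ppara-Flox LPS hearts and 463 ± 18.9 CPM in Ppara-Flox PBS hearts (SD, n = 4 each), with a log2 fold change of 1.31 ± 0.09 (SE) in each genotype. Nploc4, a cofactor that delivers unfolded proteins, rose by 0.57 ± 0.07 in PPARα-deficient and 0.65 ± 0.07 in Ppara-Flox hearts, and Sqstm1, a receptor for ubiquitinated cargo, by 0.49 ± 0.11 and 0.60 ± 0.11. Nploc4 averaged 114 ± 7.98 CPM in PPARα-deficient LPS and 76.8 ± 2.496 CPM in PPARα-deficient PBS hearts, and 119.6 ± 9.53 CPM in Ppara-Flox LPS and 75.97 ± 1.87 CPM in Ppara-Flox PBS hearts (SD, n = 4 each). Rps27a, a ubiquitin and ribosomal fusion gene, rose by 0.85 ± 0.17 and 1.09 ± 0.17.

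Between genotypes no constitutive proteasome gene passed the test. In PBS hearts 0 of 35 were higher and 0 lower in PPARα-deficient than in Ppara-Flox hearts by edgeR's quasi-likelihood test, none had an unadjusted p under 0.05, and DESeq2 and limma-voom also called 0. Over all genes 0.0321% were higher and 0.401% lower. No proteasome gene kept the 2 PBS groups apart, where 1.57% of all genes were higher and 2.42% lower without overlap. The log2 fold changes, PPARα-deficient over Ppara-Flox, had a median of -0.02 and ran from -0.17 in Psmd11 to 0.18 in Psmd10 and 1.01 in the scarcely detected Psma8. In PBS hearts Psmd10 differed by 0.18 ± 0.13 (SE) and Psma8 by 1.01 ± 0.64, the smallest unadjusted p-values of the 35 (0.17 and 0.13), with adjusted p = 1 for both. The summed levels overlapped, at 2332 to 2409 CPM in PPARα-deficient PBS and 2317 to 2540 CPM in Ppara-Flox PBS hearts.

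In LPS hearts 0 of 35 were higher and 0 lower in PPARα-deficient hearts by the same test, with 2 at an unadjusted p under 0.05 and 0 by DESeq2 and by limma-voom, where 0.385% of all genes were higher and 0.85% lower. Those 2 were Psmd1, with a log2 fold change of -0.22 ± 0.07 (SE, adjusted p = 0.236), and Psmd9, with -0.25 ± 0.11 (adjusted p = 0.535). In both every PPARα-deficient LPS library lay below every Ppara-Flox LPS library, at 109 to 120 CPM against 122 to 139 CPM for Psmd1 and 14.5 to 17.3 CPM against 18.3 to 20.4 CPM for Psmd9. No other proteasome gene kept the genotypes apart after LPS, where 2.53% of all genes were higher and 2.79% lower without overlap. The median over the 35 was -0.04, with 8 values above 0. A difference in the LPS response itself, taken as the response of PPARα-deficient minus that of Ppara-Flox hearts, was called for 0 of 35 genes and for 0% of all genes by edgeR, with 0 of the 35 at an unadjusted p under 0.05 and 0 by DESeq2 and limma-voom. Over all genes 1075 had an unadjusted p under 0.05 by edgeR, and DESeq2 called 26 higher and 29 lower while limma-voom called 0. The smallest p-values were those of Psmd14, with -0.20 ± 0.12 (adjusted p = 0.963), and Psmd3, with -0.33 ± 0.23 (adjusted p = 0.991). With standard errors of this size a like response was not shown either.

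**Figure D5:**
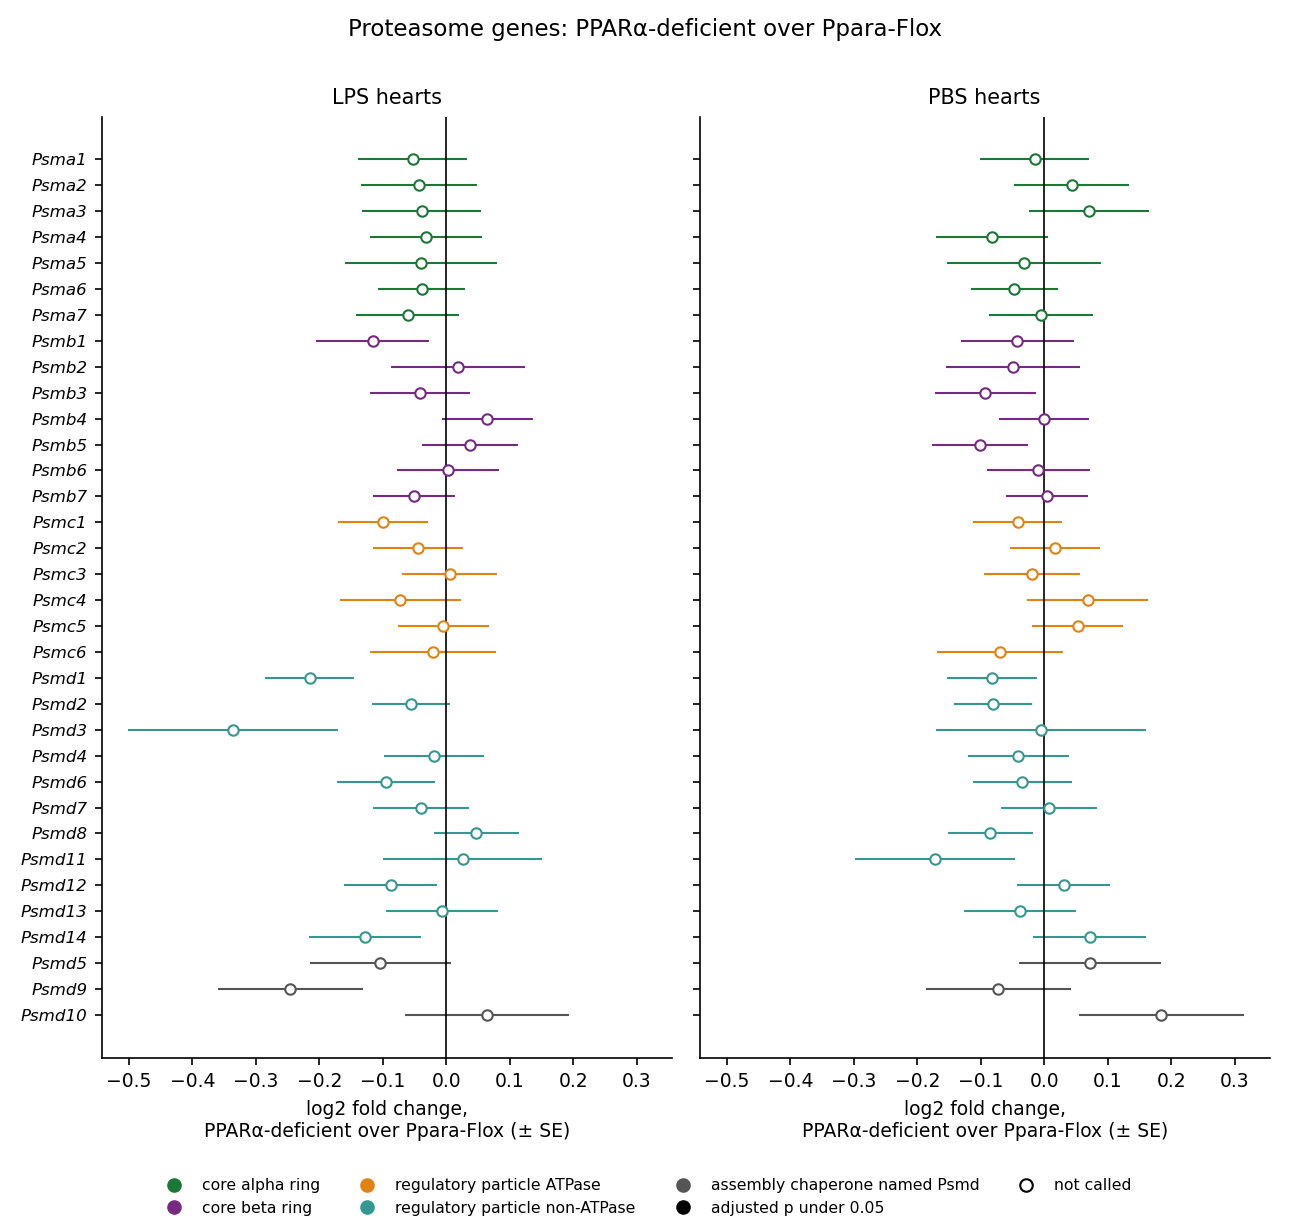
Log2 fold change, PPARα-deficient over Ppara-Flox, with its standard error (horizontal bars) for 34 proteasome genes in LPS hearts (left) and PBS hearts (right), without Psma8 and Psmb11; colours give the role and open points did not pass an adjusted p of 0.05. No point is filled, and Psmd1, Psmd3 and Psmd9 lie farthest to the left in LPS hearts, at -0.22, -0.34 and -0.25.

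Of the 6 lists of genes around the proteasome, 1 gene was called between genotypes, Ddi2, which was lower in PPARα-deficient LPS hearts. Its list holds 5 genes, and the other lists hold 3, 5, 4, 9 and 15. Over all genes tested 0.385% were higher and 0.85% lower in that comparison. Ddi2, the protease that frees the Nfe2l1 protein, was chosen after its values were seen. It stood at 70.6, 60.8, 71.0 and 52.9 CPM in PPARα-deficient LPS hearts and at 99.3, 94.5, 84.8 and 101 CPM in Ppara-Flox LPS hearts, so that the groups did not overlap. In PBS hearts it stood at 56.7, 57.5, 60.8 and 59.1 CPM in PPARα-deficient and at 61.5, 45.8, 53.7 and 67.9 CPM in Ppara-Flox hearts. The log2 fold change in LPS hearts, PPARα-deficient over Ppara-Flox, was -0.57 ± 0.12 (SE, adjusted p = 0.0175). After LPS it rose by 0.73 ± 0.12 (adjusted p = 9.62e-05) in Ppara-Flox hearts, its value of 0.12 ± 0.12 in PPARα-deficient hearts did not pass (adjusted p = 0.434), and the difference between these responses, -0.60 ± 0.16, was not called (adjusted p = 0.536). Nfe2l1, whose library values are given above, was lower in every PPARα-deficient PBS heart, at 121 to 154 CPM, than in every Ppara-Flox PBS heart, at 198 to 554 CPM. That difference, a log2 fold change of -1.13 ± 0.42 (SE, unadjusted p = 0.0167 in the edgeR fit), was not called (adjusted p = 0.645), and in LPS hearts the groups overlapped.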

How the data were processed

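Heart RNA of 16 mice was sequenced, 4 per group, from libraries made with a stranded kit per the labels' protocols. Each deposited table holds estimated counts per gene symbol, not scaled between libraries. Per the submitters' processing notes, the build was GRCm38 and the tools included DESeq2 1.30.1, StringTie 1.3.3b, HISAT and fastp 0.23.2. The counting tool, annotation and strand setting are not given in the sources used here. Low values pile up at multiples of 4, so a total divided by 4 (16392284 to 18859006) may be nearer to the number of read pairs, which was not tested. Of 55421 lines, 27 blank or turned into dates were left out (0.0644% to 0.0861% of counts), and 116 repeated symbols were summed.

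The counts were fitted as 4 group means with edgeR 4.0.16 in R 4.3.3 (filterByExpr, TMM, glmQLFit, glmQLFTest, 12 residual degrees of freedom, legacy deviances), with Benjamini-Hochberg adjustment over 18713 genes and no minimum fold for a call, which needed an adjusted p under 0.05. Each standard error is the log2 fold change divided by the root of F. The fit was also run on counts simulated from its own model, with planted changes in far fewer genes than were called after LPS. That run bears on the code and not on the calls given here. Nothing in the labels says that libraries of a group are more than separate samples, so p-values measure the spread between these samples. No 2 of the 120 pairs of libraries were identical. Ratios of catalytic genes were compared with exact permutation tests (scipy 1.17.1). Lengths, coordinates and overlaps came from GENCODE vM21, copies from blastn 2.17.0 on its transcripts, and promoters from RefSeq. Tables and figures used Python 3.11.15, pandas 2.3.3, numpy 2.4.6 and matplotlib 3.10.9.

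The members and lists were chosen with earlier results of these data known. Values in every library are given for Psmb5, Psmb6 and Psmb7, for the 4 called members with the highest and the 4 with the lowest log2 fold change in each LPS comparison, and, where no member was called, for the 2 with the smallest p in each genotype comparison and the interaction. Of other lists up to 4 genes with the smallest adjusted p after LPS in PPARα-deficient hearts are given, and all immunoproteasome and activator genes. Alternatives were RLE, upper-quartile and no scaling factors, DESeq2 1.42.0, limma-voom (limma 3.58.1), no low-value filter or one of 1 CPM in 8 or more libraries, a threshold of 0.01, fits of 8 libraries, a block for the replicate number, values divided by 4, mitochondrial genes left out, PPARα-deficient LPS library 3 and Ppara-Flox LPS library 4 left out together, and each library left out in turn. Bias-adjusted deviances and the 2 number series of the PBS headers as a term were added after seeing the data.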

Additional observations from a re-analysis of the deposited data

Results flagged for a closer look

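In 12 of the 140 groups of 4 values, 35 genes in 4 groups, 1 library stood apart from the other 3 by Dixon's criterion, which chance meets in about 1 group in 20. PPARα-deficient LPS hearts held 2 of these: Psmd11 was lowest in library 4, at 78.3 CPM against 116 to 117 CPM in the others, and Psmd12 was highest in library 2, at 112 CPM against 104 to 105 CPM. In PPARα-deficient PBS hearts Psma5 was highest in library 4, at 28.8 CPM against 23.3 to 23.7 CPM, and Psmd8 was lowest in library 1, at 57.3 CPM against 61.3 to 62.0 CPM. In Ppara-Flox LPS hearts library 3 was lowest for Psma5 (36.4 CPM against 52.4 to 55.6 CPM), Psmc6 (72.8 CPM against 89.8 to 92.2 CPM) and Psmd11 (92.4 CPM against 109 to 110 CPM), and library 2 was highest for Psmd9 (20.4 CPM against 18.3 to 18.6 CPM). In Ppara-Flox PBS hearts library 1 was lowest for Psma2 (49.2 CPM against 59.1 to 59.3 CPM) and Psmc2 (66.6 CPM against 74.4 to 74.7 CPM), library 2 was highest for Psmd3 (139 CPM against 94.2 to 96.9 CPM) and library 3 was lowest for Psmd6 (47.0 CPM against 51.2 to 51.8 CPM). None of these libraries ended the LPS call of its own gene when left out.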

How the results depend on the processing

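Under the alternatives run, the proteasome genes tested, other than Psmb11, kept a positive log2 fold change after LPS in both genotypes and none was called lower. Psmb11, tested only without a filter, was at 0 in PPARα-deficient hearts. In PPARα-deficient hearts 23 to 30 rose, fewest (23) with upper-quartile factors and at an adjusted p under 0.01. In Ppara-Flox hearts 23 to 33 rose, fewest (23) at an adjusted p under 0.01 and 24 with upper-quartile factors. Leaving out 1 library at a time gave 24 to 30 in PPARα-deficient and 24 to 31 in Ppara-Flox hearts. The lowest counts came without PPARα-deficient PBS library 3 or LPS library 1 or 2, and without Ppara-Flox PBS library 3. Genotype and interaction counts stayed at 0 throughout. With library totals alone the median of all genes shifted to 0.08 in Ppara-Flox hearts. Same-numbered libraries did not deviate together (correlations of -0.0658 to 0.0746), so the numbers were not taken as pairs, and a replicate block gave 28 and 30, of which 28 and 29 were called without it: in Ppara-Flox hearts the block lost Psmd5 and gained Psma8. With the 2 number series of the PBS headers as a term the counts were also 28 and 30. Depth limits Psma8 and Psmb11 alone among the 36 genes.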
